A study of Homo sapiens with 15 samples.

Results

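The transcripts described here are those of 10 WNT ligand genes, WNT3, WNT3A, WNT8A, WNT5A, WNT5B, WNT11, WNT2, WNT2B, WNT4 and WNT6. They were taken by gene symbol from a table of 60605 genes that holds all 19 human WNT genes, whatever their level. Bulk RNA sequencing was done on 15 libraries of the wild-type human embryonic stem cell line H1 during cardiac differentiation, with 1 library per condition and day and no replicates. Undifferentiated cells gave the day 0 library. All other libraries come from cells moved on day 0 from E8 to DF medium with CHIR99021, a GSK3 inhibitor that stabilizes beta-catenin. CHIR99021 was given for the first day, and insulin in DF medium followed on day 1. The libraries of days 1 and 2 are shared by the 3 later arms. NP-ctrl cells, where NP stands for not passaged, then differentiated spontaneously in their wells. NP-IWP2 cells were likewise left in their wells, with the PORCN inhibitor IWP2 in the medium between days 2 and 4. Passaged cells were detached with EDTA on day 2 and replated at lower density with the ROCK inhibitor Y27632, without a WNT inhibitor. Each arm was sequenced on days 3, 5, 7 and 10. The questions asked are which ligands were there for IWP2 to act on, on which days, and whether levels differed in the replated arm.

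WNT ligands are secreted glycoproteins. Before they leave the cell, PORCN, an enzyme of the endoplasmic reticulum, attaches a fatty acid to a conserved serine, and the carrier WLS then takes the lipid-bearing ligand to the cell surface. IWP2 blocks the first of these steps, so that it acts on ligands as a class and not on their transcripts. WNT3, WNT3A and WNT8A are best known for signalling through beta-catenin, which sets up the primitive streak and posterior mesoderm. WNT5A, WNT5B and WNT11 are best known for signalling without beta-catenin, through the pathways of cell polarity and movement. In cardiac differentiation, beta-catenin signalling is needed to form mesoderm and has to be low afterwards for cardiomyocytes to form.

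The stretch that PORCN acts on is shown because it is what IWP2 leaves unmodified. It was found in frame as 8 codons, 24 bases, that match the family's pattern around the acylated serine in the MANE Select transcript of GENCODE release 44, and all 19 WNT genes had 1 such match. Each line gives the genomic position on GRCh38, the strand of the gene and the exon, and the codon of the acylated serine is in capitals.

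WNT3 (ENSG00000108379), chr17:46768743-46768766, minus strand, exon 4 of 5: tgccacgggctgTCGggcagctgt
WNT3A (ENSG00000154342), chr1:228059019-228059042, plus strand, exon 4 of 4: tgccacgggctgTCGggcagctgc
WNT8A (ENSG00000061492), chr5:138090561-138090584, plus strand, exon 5 of 5: tgtcatggcatcTCTgggagctgc
WNT5A (ENSG00000114251), chr3:55470494-55470517, minus strand, exon 5 of 5: tgccatggggtgTCCggctcatgt
WNT5B (ENSG00000111186), chr12:1645827-1645850, plus strand, exon 5 of 5: tgccacggcgtcTCGgggtcctgc
WNT11 (ENSG00000085741), chr11:76191800-76191823, minus strand, exon 4 of 5: tgccatggggtgTCTggctcctgc
WNT2 (ENSG00000105989), chr7:117297820-117297843, minus strand, exon 4 of 5: tgccacggggtgAGCggctcatgt
WNT2B (ENSG00000134245), chr1:112517154-112517177, plus strand, exon 4 of 5: tgccatggcgtgAGTggttcctgt
WNT4 (ENSG00000162552), chr1:22120461-22120484, minus strand, exon 5 of 5: tgccacggggtgTCAggctcctgt
WNT6 (ENSG00000115596), chr2:218873417-218873440, plus strand, exon 4 of 4: tgccacgggctgTCGggatcatgc

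The stretches of WNT3 and WNT3A differed from each other at 1 of 24 bases. Against WNT3A, the other ligands differed at 4 bases in WNT6, 5 in WNT11 and WNT4, 6 in WNT5B, 7 in WNT8A and WNT5A, 8 in WNT2 and 10 in WNT2B. WNT2 and WNT2B were the only 2 of the 19 genes that spell the serine with a codon beginning with AG, and the other 17 use a codon that begins with TC. The longest run of identical bases between the transcript of a ligand and that of any other WNT gene was 25 to 38 bases.

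Total counts ranged from 13254723 to 20250115 per library. All 10 ligands had an FPKM (fragments scaled to exon length and library size) of at least 1 in at least 1 library, the filter that 21206 genes passed. Intervals in brackets are exact 95% intervals and cover counting error only. A ligand is called higher or lower between 2 libraries where the FPKM ratio is at least 2-fold and its interval excludes 1. This is a description of those libraries and carries no p-value. Rescaling to TMM, median-of-ratios or TPM values moved the median log2 ratio of all genes by -0.17 to 0.18, -0.16 to 0.16 and -0.29 to 0.28 between the libraries compared. These rescalings turned no ligand from higher to lower, and where they removed or added a call this is said beside it. The mitochondrial genome gave 1.53% of the counts in passaged cells on day 3 and 10.3% on day 10, outside the 3.71% to 6.14% of the other 13 libraries. Pluripotency markers were all above 3 counts on day 0, and the 5 cardiomyocyte markers were all above 3 counts in each arm on days 5, 7 and 10. In bulk RNA, fewer cells of a type and less RNA per cell cannot be told apart.

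The ligand pool was small in undifferentiated cells, largest on day 2 and remade by day 7. The summed FPKM of the 10 genes went from 7.69 (day 0) through 48.4 (day 1) to 225 (day 2). On day 3 NP-ctrl had a sum of 100.4, NP-IWP2 of 85.2 and passaged cells of 50.9. Day 5 gave 53.6, 38.8 and 79.0 in the same order of arms, and day 7 gave 60.7, 73.9 and 119. Day 10 gave 53.5, 70.5 and 122. The passaged library thus had the lowest sum of the 3 arms on day 3 and the highest from day 5. The other 9 human WNT genes added between 0.25 and 2.39 FPKM, and of these WNT9A and WNT9B alone passed the filter.

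**Figure D1:**
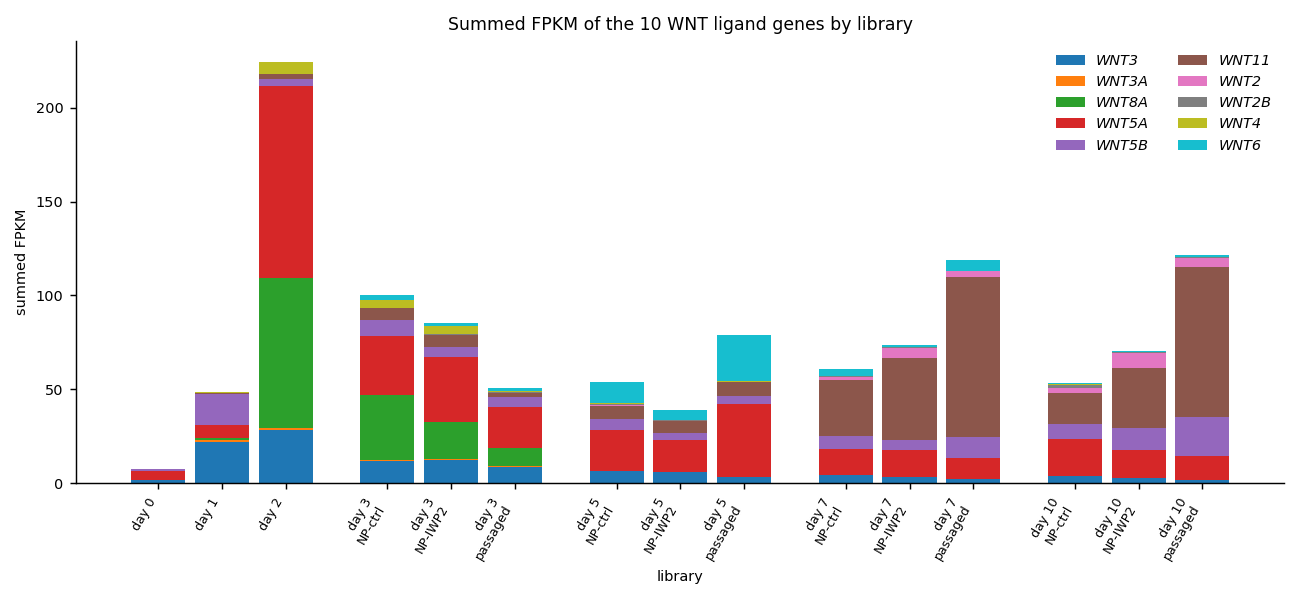
Summed FPKM of the 10 ligand genes in each of the 15 libraries, 1 stacked bar per library with 1 colour per gene. The bar of day 2 reaches 225, mostly WNT5A and WNT8A, while WNT11 makes up 66.1% of the bar of passaged cells on day 10.

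In the libraries that bracket IWP2 treatment, 3 ligands made up most of the pool. On day 2, when IWP2 was added, WNT5A held 45.8% of the summed FPKM, WNT8A 35.4% and WNT3 12.6%, and 7 of the 10 ligands were at an FPKM of at least 1. In NP-IWP2 on day 3, with the inhibitor present, the same genes led with 40.6%, 23.7% and 14.3%, again with 7 ligands at an FPKM of at least 1. In NP-ctrl on day 3 WNT8A led with 34.8%, ahead of WNT5A with 31.4%. WNT2 had 0 counts in every library up to day 3 but that of passaged cells, which had 1, so that its FPKM was at most about 0.05, the value of 3 counts in the shallowest of these libraries. By day 5 in NP-IWP2, WNT8A had 1 count, WNT5A held 43.98% of the pool and WNT11 16.5%.

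The ligands best known for beta-catenin signalling lost ground to those known for signalling without it. WNT3, WNT3A and WNT8A together held 50.1% of the summed FPKM on day 1 and 48.6% on day 2. By day 10 NP-ctrl had 6.84% left, NP-IWP2 3.69% and passaged cells 1.26%. WNT5A, WNT5B and WNT11 together had 48.6% on day 2 and 83.0%, 83.5% and 93.7% on day 10. Their summed FPKM was 109.07 on day 2 and 44.4, 58.8 and 113.85 on day 10, so that in NP-ctrl and NP-IWP2 their share was larger and their summed FPKM smaller than on day 2. WNT2, WNT2B, WNT4 and WNT6 held at most 7.26% in any library up to day 3 and had their largest share in each arm on day 5, at 22.9%, 14.7% and 32.1%.

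**Figure D2:**
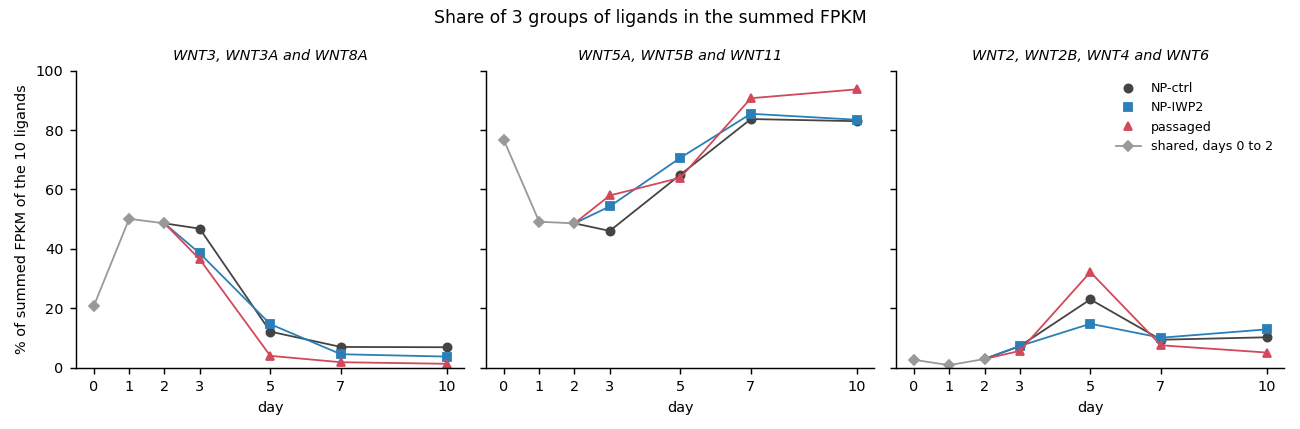
Share of the summed FPKM of the 10 ligands held by 3 groups of ligands, in percent, by day and arm, with 1 library per point. The group of WNT3, WNT3A and WNT8A falls from 48.6% on day 2 to between 1.26% and 6.84% on day 10 as the group of WNT5A, WNT5B and WNT11 reaches 83.0% to 93.7%.

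The first 2 days show which ligands followed CHIR99021 and the change to DF medium, which came together on day 0. Between day 0 and day 1, 5 of the 10 ligands were called higher and 0 lower, where 6.47% of all genes were higher and 6.67% lower. WNT3 (chromosome 17, 46762506 to 46833154) went from an FPKM of 1.56 to 22.0, a ratio of 14.1 (11.7 to 17.2). WNT5B (chromosome 12, 1529891 to 1647212) went from 1.01 to 16.65, a ratio of 16.42 (13.0 to 21.1). WNT3A, with 2 counts on day 0 and 53 on day 1, had a ratio of 24.4 with a wide interval (6.43 to 207). WNT8A had 0 counts on day 0 and 47 on day 1, at least 14.42-fold higher. WNT11 had a ratio of 4.76 (1.95 to 13.9) at a low FPKM of 0.71. WNT5A, the leading ligand of day 0, was 1.36-fold (1.22 to 1.51) higher, short of 2-fold. WNT3 and WNT5B thus gave most of the day 1 pool, 45.5% and 34.4% of it.

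A different set came up on day 2. Between day 1 and day 2, 4 ligands were called higher, against 9.35% of all genes, and 1 was lower, against 5.51%. WNT8A (chromosome 5, 138083990 to 138092365) went from an FPKM of 1.28 to 79.5, a ratio of 62.1 (46.6 to 84.7). WNT4 (chromosome 1, 22117313 to 22143969), which acts in kidney and reproductive tract development, went from 0.14 to 6.01, a ratio of 42.9 (24.4 to 83.6). WNT5A (chromosome 3, 55465715 to 55490539) went from 6.43 to 103, a ratio of 15.999 (14.9 to 17.2). WNT11 was 3.64-fold (2.44 to 5.59) higher at an FPKM of 2.58. WNT5B was the exception, 4.598-fold (4.06 to 5.22) lower at 3.62. WNT3 and WNT3A stayed within 2-fold of day 1, with ratios of 1.29 (1.21 to 1.37) and 1.27 (0.881 to 1.84). Over both days together, 8 of the 10 ligands were higher on day 2 than on day 0 and 0 lower, where 21.3% of all genes were called, 12.7% higher and 8.58% lower, and WNT2 and WNT2B were not called. WNT5A shares its locus with the antisense gene WNT5A-AS1, whose counts were also highest on day 2 at 764 against 14900 for WNT5A, and the strand used for counting was not given in the sources used here.

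**Figure D3:**
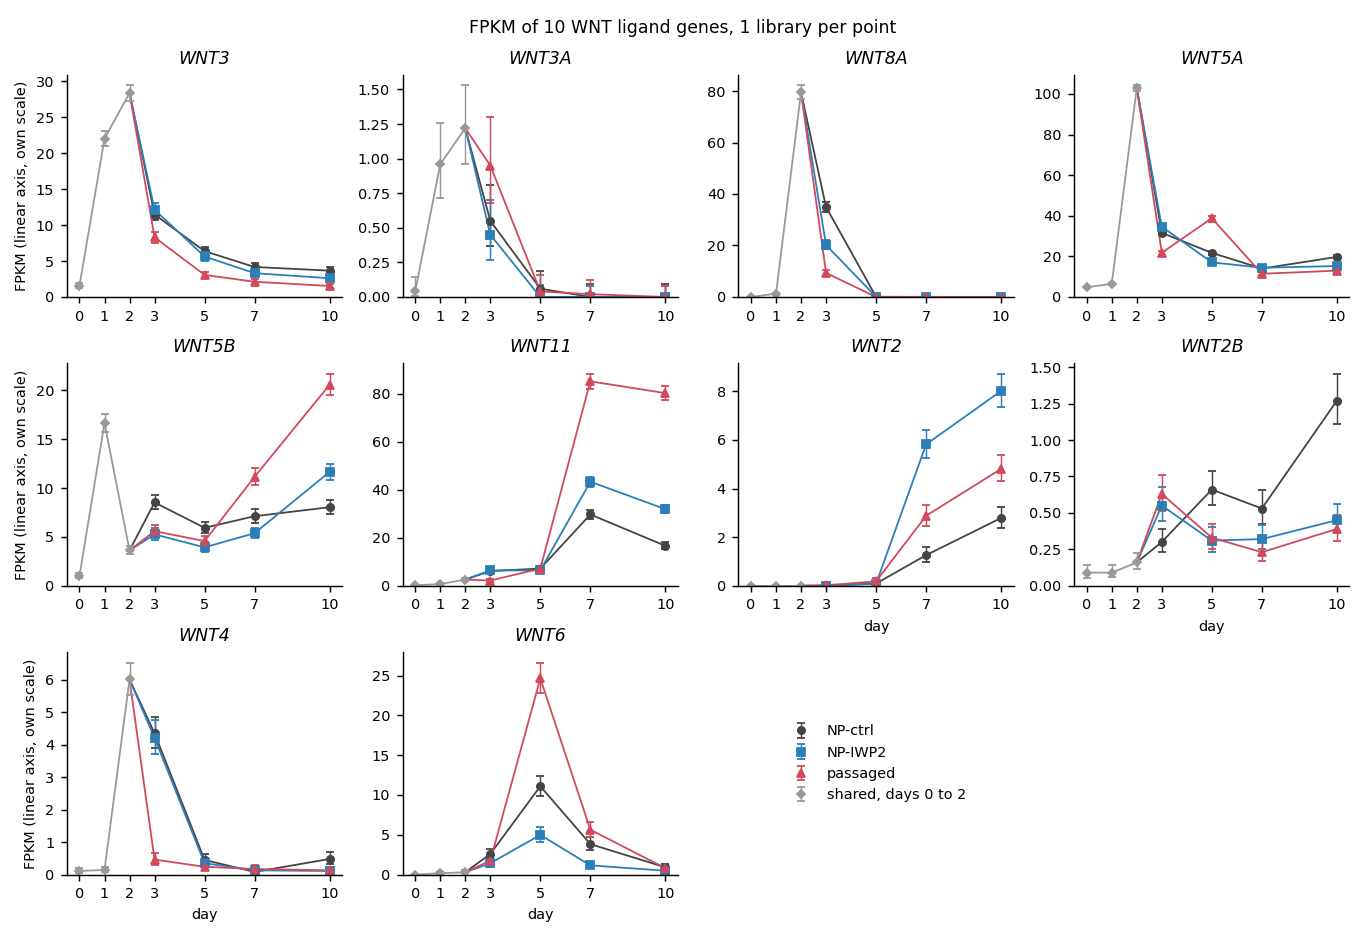
FPKM of each of the 10 ligands by day, on a linear axis with its own scale per panel; each point is 1 library, bars are exact 95% counting intervals, grey marks the shared days and the other colours the 3 arms. WNT8A, WNT3, WNT5A and WNT4 peak on day 2, WNT6 on day 5, and WNT11 and WNT2 on days 7 or 10, while WNT5B is high on day 1 and again in passaged cells on day 10.

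From day 2 to day 3, WNT3, WNT8A and WNT5A were lower in all 3 arms, which share the day 2 library. WNT8A was lower by 2.27-fold (2.12 to 2.44) for NP-ctrl, by 3.94-fold (3.597 to 4.32) for NP-IWP2 and by 8.53-fold (7.501 to 9.73) for passaged cells. WNT5A was lower by 3.26-fold (3.14 to 3.38), 2.97-fold (2.87 to 3.09) and 4.73-fold (4.52 to 4.95) in the same order. WNT3 was lower by 2.48-fold (2.28 to 2.69), 2.34-fold (2.15 to 2.55) and 3.42-fold (3.10 to 3.78). In each of these the fall was steepest in the passaged library. WNT3A was called lower in NP-ctrl, 2.20-fold (1.40 to 3.56), and in NP-IWP2, 2.74-fold (1.62 to 4.87), but not in passaged cells, where the ratio to day 2 was 0.78 (0.515 to 1.16).

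WNT4 set the passaged library apart at this step. It was 13.2-fold (9.08 to 19.9) lower than on day 2 in passaged cells, while NP-ctrl and NP-IWP2 were within 2-fold of day 2 at 0.724 (0.630 to 0.831) and 0.70 (0.602 to 0.811). WNT11 was 2.37-fold (1.9 to 2.97) higher in NP-ctrl and 2.47-fold (1.97 to 3.11) higher in NP-IWP2, against a ratio of 0.836 (0.614 to 1.13) in passaged cells. WNT6 was called higher in all 3 arms, by 8.97-fold (4.61 to 19.5), 4.95-fold (2.38 to 11.3) and 6.07-fold (2.99 to 13.6) from 10 counts on day 2. WNT5B was called higher in NP-ctrl, and WNT2B in NP-IWP2 and passaged cells. In all, 3 ligands were higher and 4 lower in NP-ctrl, where 9.29% and 8.02% of all genes were. The numbers were 3 and 4 in NP-IWP2, against 11.7% and 5.00%, and 2 and 4 in passaged cells, against 12.6% and 7.98%.

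Passaged cells were compared with NP-ctrl of the same day, neither of them with a WNT inhibitor. EDTA, replating, the lower density and Y27632 came together in the passaged arm, so their parts cannot be told apart. One day after replating, 3 ligands were lower and 1 was higher, where 6.44% and 9.08% of all genes were. WNT8A was at an FPKM of 34.95 in NP-ctrl and 9.32 in passaged cells, 3.75-fold (3.27 to 4.31) lower. WNT4 was at 4.35 and 0.46, 9.55-fold (6.53 to 14.5) lower. WNT11 was at 6.12 and 2.16, 2.84-fold (2.17 to 3.76) lower. The ligand called higher was WNT2B, at 0.30 and 0.63, a ratio of 2.06 (1.49 to 2.88) that fell to 1.94 with TMM and 1.92 with median-of-ratios factors and was then not called. WNT3A was 1.72-fold (1.02 to 2.91) higher at 39 against 27 counts, and with TPM its ratio of 2.09 was called. Markers of early cardiac mesoderm also stood apart in this library. NP-ctrl had a summed FPKM of 836, NP-IWP2 of 664 and passaged cells of 136, with all 5 above 3 counts in each. The sum of the presomitic markers was 131, 146 and 30.6, with MSGN1 at or under 3 counts in NP-IWP2 and passaged cells. Their part in the ligand differences was not tested.

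By day 5 the passaged library had the higher level of WNT6, a ligand of ectoderm and of mesenchyme that turns into epithelium. WNT6 (chromosome 2, 218859805 to 218874233) reached 24.65 FPKM in passaged cells against 11.1 in NP-ctrl, 2.22-fold (1.93 to 2.56) higher, and 4.98 in NP-IWP2. It was the 1 ligand called higher, where 5.92% of all genes were. WNT3, at 6.37 against 3.07, was 2.08-fold (1.75 to 2.47) lower and WNT2B 2.01-fold (1.47 to 2.77) lower, where 8.04% of all genes were lower. WNT5A was 1.78-fold (1.70 to 1.88) higher in passaged cells, at 38.8 against 21.7, beyond counting error and short of 2-fold. WNT11 had come back to the level of NP-ctrl, with a ratio of 0.999 (0.839 to 1.19).

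On days 7 and 10 WNT11 led the ligands of passaged cells. WNT11 (chromosome 11, 76186325 to 76210736) is made in the early heart tube and is known for promoting cardiac differentiation. On day 7 NP-ctrl had an FPKM of 29.7, NP-IWP2 of 43.4 and passaged cells of 85.2. On day 10 these arms had 16.6, 31.9 and 80.3. The order of the arms was the same on both days, with passaged cells highest and NP-ctrl lowest. Passaged cells exceeded NP-ctrl 2.87-fold (2.66 to 3.09) on day 7 and 4.83-fold (4.40 to 5.31) on day 10. The 5 cardiomyocyte markers summed to 555, 2045 and 2700 FPKM on day 7 and to 424, 1339 and 3276 on day 10, in the same order of arms, and their part in the WNT11 levels was not tested. The antisense gene ENSG00000254933 overlaps WNT11 and had at most 93 counts, in passaged cells on day 10, against 2898 for WNT11.

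WNT5B followed WNT11 upward in passaged cells, and WNT3 kept falling. WNT5B was at 7.12 in NP-ctrl and 11.15 in passaged cells on day 7, a ratio of 1.57 (1.38 to 1.78). On day 10 it was at 8.04 and 20.6, a ratio of 2.56 (2.30 to 2.85). The gene FBXL14 on the opposite strand overlaps WNT5B with 171 to 516 counts. It was highest in passaged cells on day 3, where WNT5B had 324 counts. WNT3 was at 4.17 and 2.11 on day 7, 1.98-fold (1.59 to 2.46) lower and called only with TPM, and at 3.66 and 1.53 on day 10, 2.40-fold (1.88 to 3.08) lower. WNT2B was 2.29-fold (1.57 to 3.38) lower on day 7 and 3.28-fold (2.50 to 4.34) lower on day 10. WNT2 was 2.28-fold (1.73 to 3.03) higher in passaged cells on day 7 and 1.72-fold (1.42 to 2.09) higher on day 10. WNT4, at 30 and 9 counts on day 10, was 3.77-fold (1.74 to 9.02) lower. On day 7, 2 ligands were higher and 1 lower, against 6.27% and 13.2% of all genes, and on day 10, 2 were higher and 3 lower, against 7.37% and 17.4%.

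**Figure D4:**
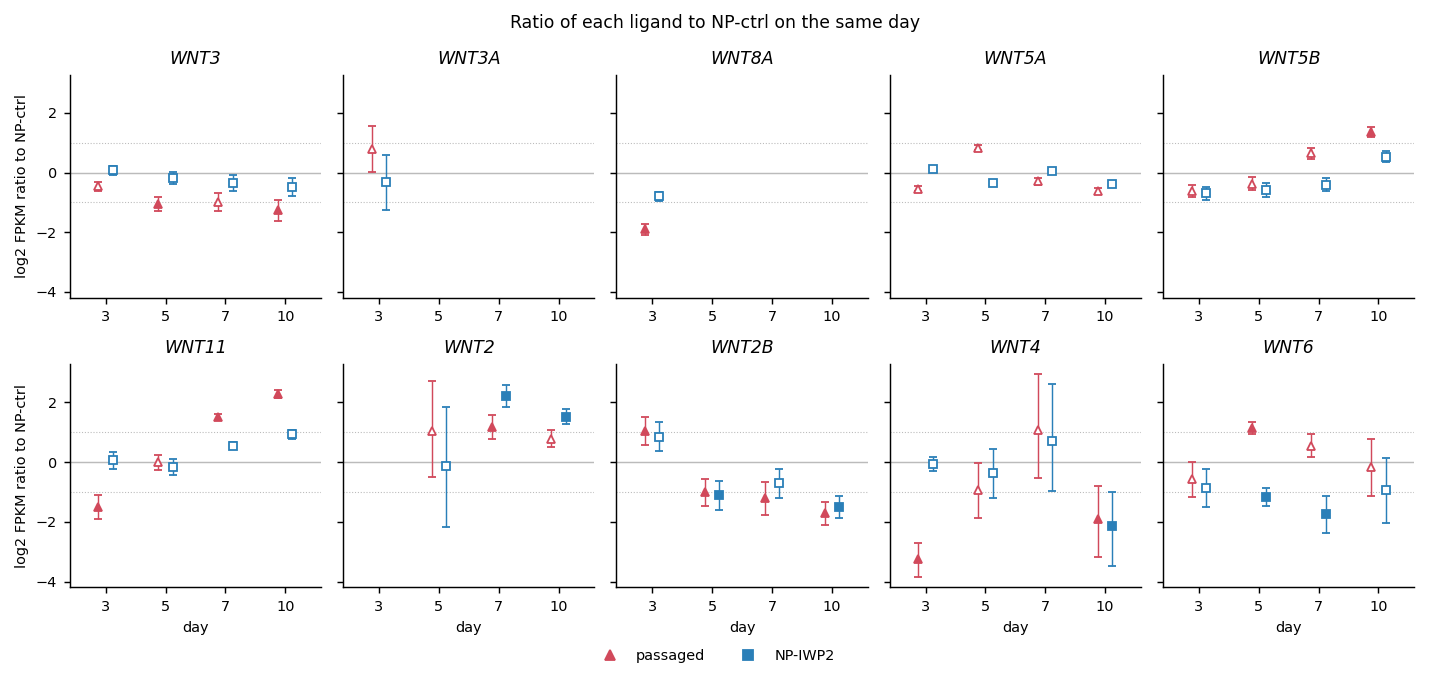
Log2 of the FPKM ratio of passaged cells (triangles) and NP-IWP2 (squares) to NP-ctrl on the same day, with exact 95% counting intervals; both arms are divided by the same NP-ctrl library, filled symbols are at least 2-fold with an interval that excludes 1, dotted lines mark 2-fold, and points with 3 or fewer counts in either library are left out. WNT11 goes from a ratio of 0.352 on day 3 to 4.83 on day 10 in passaged cells, and WNT3 lies below NP-ctrl in passaged cells on all 4 days.

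Effects of the arms that held across days were tested with the quasi-likelihood test of edgeR on the 12 libraries from day 3 on, in a model of day plus arm. What the test takes as spread is how far an arm's difference varies between days of 1 series of cultures, and p-values were adjusted over the 21206 genes tested. For passaged cells against NP-ctrl 2 ligands passed, both lower, where 4.40% of all genes passed and 2.76% were lower. For WNT3 the log2 change was -0.89 (SE 0.16, edgeR adjusted p 0.013), with passaged cells lower on 4 of 4 days. For WNT8A it was -2.11 (SE 0.47, edgeR adjusted p 0.0402), a value that rests on day 3, since no library of days 5 to 10 held more than 2 counts. WNT8A was also not called by limma (adjusted p 0.394 and 0.286 at pseudocounts of 1 and 0.1) or without day 3 (adjusted p 0.497 in edgeR). Both calls were lost when only the 2 arms were fitted (adjusted p 0.145 and 0.191 in edgeR) and when day 5, day 7 or day 10 was left out, with adjusted p from 0.079 to 0.132 for WNT3 and from 0.0503 to 0.157 for WNT8A. The median log2 change of the 10 ligands was 0.12, and that of all genes -0.003.

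The other ligands did not pass, and their differences changed size or sign with the day. WNT2 had a log2 change of 1.19 (edgeR adjusted p 0.137) and was above NP-ctrl on days 5, 7 and 10, though on day 5 within counting error, and it passed with no filter (adjusted p 0.0415 in edgeR). WNT11, lower on day 3 and higher on days 7 and 10, had 0.81 (edgeR adjusted p 0.446). WNT4 had -1.30 (edgeR adjusted p 0.319).

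The comparison of NP-IWP2 with NP-ctrl asks whether inhibition of ligand acylation altered the ligands' own transcripts. On day 3, with IWP2 present, 0 of the 10 ligands were called, where 6.96% of all genes were and 5.58% were higher. WNT2B was 1.82-fold (1.30 to 2.55) higher, WNT6 1.81-fold (1.18 to 2.82) lower, and WNT8A, at 20.2 against 34.95 in NP-ctrl, 1.73-fold (1.56 to 1.92) lower. WNT3 with a ratio of 1.06 (0.955 to 1.17), WNT4 with 0.966 (0.819 to 1.14) and WNT11 with 1.04 (0.859 to 1.26) were within counting error of NP-ctrl. WNT5A differed by 1.10-fold (1.05 to 1.15) and WNT5B by 1.62-fold (1.41 to 1.87) in opposite directions, WNT5B being lower.

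WNT6 was called lower in NP-IWP2 than in NP-ctrl on days 5 and 7, and WNT2 higher on days 7 and 10. On day 5 WNT2 had 5 counts in NP-IWP2 and 6 in NP-ctrl. WNT6 was 2.23-fold (1.80 to 2.78) lower on day 5 and 3.32-fold (2.19 to 5.14) lower on day 7. WNT2 (chromosome 7, 117275451 to 117323152), a ligand of the early heart and lung, was 4.604-fold (3.58 to 5.99) higher on day 7, at 5.82 against 1.26, and 2.87-fold (2.41 to 3.44) higher on day 10, at 8.02 against 2.79. The NP-IWP2 library had the highest WNT2 level of the 3 arms on both days. On day 10 NP-ctrl had 70.5 summed FPKM of epicardial and mesothelial markers, NP-IWP2 76.7 and passaged cells 0.39, where MSLN, TCF21, UPK3B and WT1 were at or under 3 counts. WNT2 was at 4.81 FPKM in that passaged library. TBX18 gave 40.6 FPKM of the marker sum in NP-ctrl and 65.1 of that in NP-IWP2. The other markers of this list were each lower in NP-IWP2 than in NP-ctrl, WT1 at 3.53 against 10.0 and UPK3B at 1.53 against 11.5. CFTR, which overlaps WNT2, had 10 to 352 counts and was highest in NP-ctrl on day 7.

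WNT2B and WNT4 were lower in NP-IWP2 than in NP-ctrl on day 10, by 2.80-fold (2.18 to 3.63) and 4.41-fold (1.98 to 11.1), and WNT2B also on day 5, by 2.14-fold (1.55 to 3.00). WNT2B was nowhere above an FPKM of 1.27, and the gene ST7L on the opposite strand overlaps it with 139 to 279 counts. In all, 0 ligands were higher and 2 lower on day 5, against 2.15% and 2.81% of all genes. The numbers were 1 and 1 on day 7, against 4.54% and 7.54%, and 1 and 2 on day 10, against 5.11% and 9.06%.

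In edgeR, none of the 10 ligands passed between NP-IWP2 and NP-ctrl over days 3 to 10, where 0.0189% of all genes did. At an unadjusted p under 0.05 there were 2, WNT2 at 1.53 on the log2 scale (SE 0.41, adjusted p 0.718 in edgeR) and WNT6 with -1.19 (SE 0.35, adjusted p 0.873 in edgeR). WNT6 was lower in NP-IWP2 on 4 of 4 days. DESeq2 and limma also called 0 ligands, with 2 at an unadjusted p under 0.05 in DESeq2 and in limma with a pseudocount of 1, and 1 in limma with a pseudocount of 0.1. With no filter WNT2 passed (adjusted p 0.0186 in edgeR), and with only these 2 arms fitted WNT6 did (adjusted p 0.0438 in edgeR).

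Passaged cells and NP-IWP2 had the higher sums of cardiomyocyte markers on days 7 and 10, the first without and the second with a WNT inhibitor. On day 3, WNT8A was 2.16-fold (1.86 to 2.52) lower in passaged cells than in NP-IWP2, a call lost with TPM at 1.93-fold. WNT11 was 2.95-fold (2.24 to 3.93) lower and WNT4 9.23-fold (6.28 to 14.1) lower, while WNT3A was 2.14-fold (1.19 to 3.97) higher at 39 against 18 counts. These made 1 ligand higher and 3 lower, against 5.72% and 8.16% of all genes. On day 5, WNT6 was 4.95-fold (4.07 to 6.07) and WNT5A 2.27-fold (2.15 to 2.41) higher in passaged cells, and no ligand was lower, against 5.67% and 7.39%. WNT6 was still 4.89-fold (3.31 to 7.41) higher on day 7, when WNT5B was 2.07-fold (1.82 to 2.36) higher and WNT2 2.02-fold (1.70 to 2.42) lower, against 3.83% and 7.92% of all genes. The WNT2 call was lost with TMM and median-of-ratios factors, at 1.89-fold and 1.898-fold. WNT11 was 1.965-fold (1.85 to 2.09) higher on day 7, which these 2 scalings brought to 2.11 and 2.09. On day 10 WNT11 was the 1 ligand called, 2.52-fold (2.35 to 2.69) higher. Of all genes 17.1% were called on day 10, 4.43% higher and 12.7% lower.

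None of the ligands passed in edgeR between passaged cells and NP-IWP2 over days 3 to 10, where 1.33% of all genes did, and 4 had an unadjusted p under 0.05. The smallest adjusted p was that of WNT6 at 0.0646 in edgeR, with a log2 change of 1.59 (SE 0.36). WNT6 was higher in passaged cells on 4 of 4 days, beyond counting error on days 5 and 7. WNT3 had -0.64 (SE 0.16, edgeR adjusted p 0.0982) and was lower in passaged cells on 4 of 4 days. DESeq2 called both and limma neither, with 3 ligands at an unadjusted p under 0.05 in DESeq2 and 2 in limma at either pseudocount. The adjusted p in DESeq2 was 0.0018 for WNT6 and 0.0109 for WNT3. Without day 3 WNT6 passed in edgeR (adjusted p 0.011).

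Changes with time were tested over the arms together. Between day 3 and day 10 over the 3 arms, 8 of the 10 ligands passed in edgeR, 3 higher and 5 lower, where 17.9% of all genes were higher and 17.1% lower. On the log2 scale WNT11 changed by 2.93 (SE 0.61, adjusted p 0.0037 in edgeR) and WNT5B by 1.10 (SE 0.36, adjusted p 0.034 in edgeR), and WNT2 came up from 1 count in 3 libraries to 164 to 554 counts. WNT5B was not higher in each arm, since NP-ctrl went from an FPKM of 8.53 to 8.04, while NP-IWP2 went from 5.26 to 11.66 and passaged cells from 5.59 to 20.58. WNT3 had -2.01 (SE 0.19, edgeR adjusted p 3.93e-05), WNT4 -3.50 (SE 0.73, edgeR adjusted p 0.00378) and WNT6 -1.38 (SE 0.43, edgeR adjusted p 0.0266). WNT8A and WNT3A had no counts on day 10 in any arm, so their fitted changes measure no size. WNT8A was at 254 to 1131 counts on day 3, and WNT3A at 18 to 39. Without NP-IWP2, 4 ligands passed instead of 8. WNT5A, at -0.80 (SE 0.30, edgeR adjusted p 0.0544), did not pass, and neither did WNT2B.

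Some of these ligands had changed by day 5. Between day 3 and day 5, WNT8A, WNT3, WNT3A and WNT4 were lower and WNT2 and WNT6 higher in edgeR, 6 ligands in all, where 4.21% of all genes were lower and 5.46% higher. WNT2 was still near the floor, at 5 to 12 counts and an FPKM of 0.08 to 0.18 on day 5, against 0 or 1 count on day 3. WNT6 changed by 2.60 on the log2 scale (SE 0.41, adjusted p 0.00309 in edgeR). Its level was highest on day 5 in each arm, and the rise had gone again by day 10. Fewer ligands passed without NP-ctrl (2) or without NP-IWP2 (1), while 6 had an unadjusted p under 0.05 in each of these fits, as with all 3 arms.

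The machinery on which IWP2 acts was expressed throughout, and its carrier was not constant. PORCN (chromosome X, 48508959 to 48520814) was at an FPKM of 1.63 to 3.15 in the 15 libraries, and no comparison called it. Its lowest level was in passaged cells on day 5, at 1.63 against 3.11 in NP-ctrl, 1.91-fold (1.56 to 2.35) lower. WLS (chromosome 1, 68098473 to 68233120) went from 0.17 (day 0) to 26.7 (day 1) and 37.3 (day 2). On day 3 NP-ctrl had 81.9, NP-IWP2 40.5 and passaged cells 198. By day 5 the order had turned, with 197, 171 and 87.9. The levels of day 10 were 71.2, 99.8 and 72.5. Against NP-ctrl on day 3, WLS was 2.42-fold (2.34 to 2.49) higher in passaged cells and 2.02-fold (1.93 to 2.12) lower in NP-IWP2, the second call being lost with TPM. On day 5 it was 2.24-fold (2.18 to 2.31) lower in passaged cells. Over days 3 to 10 edgeR gave WLS a log2 change of 0.01 between NP-IWP2 and NP-ctrl and of 0.27 between passaged cells and NP-IWP2, neither of which passed.

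**Figure D5:**
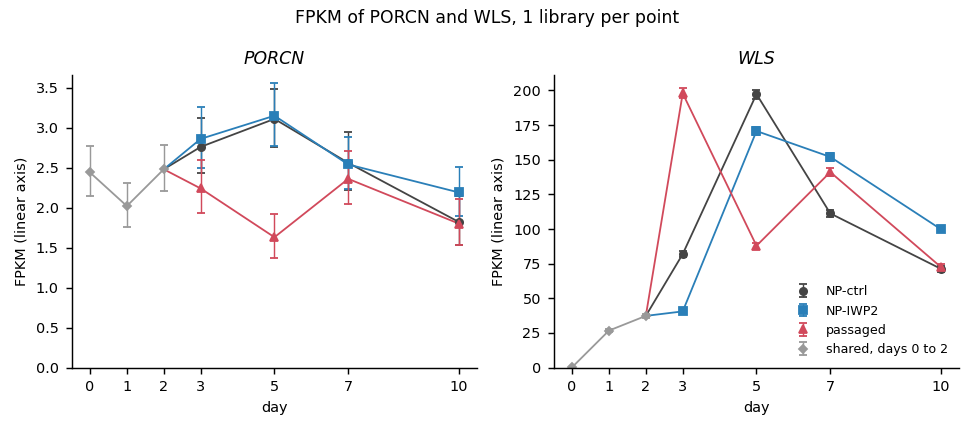
FPKM of PORCN and of WLS by day on linear axes, 1 library per point with exact 95% counting intervals. PORCN lies between 1.63 and 3.15, while WLS climbs from 0.17 on day 0 to 198 in passaged cells on day 3 and 197 in NP-ctrl on day 5.

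Genes that respond to beta-catenin were read beside the ligands. Of 15 listed targets 14 passed the filter. Between day 0 and day 1, 12 of the 14 were higher and 0 lower, where 6.47% and 6.67% of all genes were. The median log2 ratio was 3.65 against 0.03 over all genes, counts under 3 being raised to 3 in these medians. SP5 went from 0.09 to 325 FPKM and DKK1, a secreted antagonist, from 0.13 to 220. CHIR99021 gave way to insulin on day 1, and WNT8A and WNT5A came up by day 2. Between day 1 and day 2, 0 targets were higher and 8 lower, where 9.35% and 5.51% of all genes were. DKK1 fell to 0.04 and CDX1 from 30.2 to 1.67. The part of the change of treatment or of the ligands in this was not tested. On day 3, 4 were lower and 0 higher in NP-IWP2 than in NP-ctrl, where 1.38% and 5.58% of all genes were. DKK1 was at 0.27 against 2.91 and CDX1 at 0.21 against 1.91. The median log2 ratio of the targets was -0.44 against 0.12 over all genes. In passaged cells 2 were higher and 4 lower than in NP-ctrl on that day, where 9.08% and 6.44% of all genes were. The median was -0.46 against 0.09. Between passaged cells and NP-IWP2, 5 were higher and 2 lower, where 5.72% and 8.16% of all genes were, with a median of 0.18 against -0.02.

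Other genes of the pathway were counted in passaged cells and NP-ctrl. R-spondins enhance WNT signalling through LGR receptors, and 8 of the 9 listed genes passed the filter. In passaged cells 5 of the 8 were lower than in NP-ctrl on each of days 5, 7 and 10, where 8.04%, 13.2% and 17.4% of all genes were, and the median log2 ratio on day 10 was -3.02 against -0.18 over all genes. LGR5 was at 2.68 against 39.2 FPKM on day 5, and RSPO1 had no counts in passaged cells on day 10, against 17.1 FPKM in NP-ctrl. The 11 listed secreted antagonists summed to 201 FPKM in NP-ctrl and 297 in passaged cells on day 3. The sums were 113 and 160 on day 5, 438 and 68.0 on day 7, and 563 and 93.4 on day 10. DKK1 was higher in passaged cells, at 10.93 against 2.91 on day 3 and 36.0 against 6.9 on day 5. CER1 was lower on day 3, at 0.18 against 6.85, and SFRP5 on day 5, at 6.68 against 27.25. Of the 8 secreted antagonists past the filter, 1 was higher and 5 were lower on day 10, against 7.37% and 17.4% of all genes, SFRP5 being at 0.73 against 109.6 and SFRP2 at 0.07 against 21.0. Of the 16 receptors and co-receptors, 2 were higher and 7 lower on that day, against the same shares. FZD5 was at 1.04 against 5.03, and FZD9 at 1.32 against 0.22.

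Over days 3 to 10, edgeR called 1 receptor higher (FZD4) and 3 lower (FZD2, FZD7 and FZD8) of 16 between passaged cells and NP-ctrl, where 1.64% of all genes were higher and 2.76% lower. Of 8 antagonists it called 1 higher (DKK3) and 1 lower (CER1), and it called 2 of 8 R-spondin pathway genes lower (RSPO1 and LGR5), 2 of 14 beta-catenin targets lower (LGR5 and CDX2) and 1 of 12 genes of the pathway without beta-catenin higher (CELSR1). On day 10 NP-ctrl had 4035 summed FPKM of fibroblast markers, NP-IWP2 1048 and passaged cells 90.5, and endoderm and liver markers to 3671, 1095 and 17.9. Their part in these list counts was not tested.

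Each ligand's course over the 15 libraries was matched to that of all protein-coding genes that reach an FPKM of 5, by Pearson's r of log2(FPKM + 1). The libraries share days 0 to 2 and a time course, so these values describe likeness of pattern. WNT8A was most like MESP2 (r = 0.971), a transcription factor of early and presomitic mesoderm, and LHX1 (r = 0.954), a factor of the gastrula. WNT4 was also most like MESP2 (r = 0.982), and next most like WDR93 (r = 0.958). WNT3A was most like NOTUM (r = 0.964), the enzyme that removes the fatty acid from WNT ligands, and GSC (r = 0.926), a primitive streak factor. WNT3 was nearest to PRRT1B (r = 0.971) and PCDH10 (r = 0.948), a protocadherin. The early ligands were thus most like genes whose highest levels were on days 1 to 3.

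WNT2 was most like VEGFC (r = 0.985), a growth factor of lymphatic vessels, and EPHA7 (r = 0.979), an ephrin receptor. WNT11 was most like MTERF2 (r = 0.968), a mitochondrial transcription factor, and MTFR1L (r = 0.962). WNT6 was most like TFAP2A (r = 0.939), a transcription factor of ectoderm and neural crest, and LYPD6 (r = 0.914). Both of these were highest in passaged cells on day 5, as WNT6 was. WNT2B was nearest to GLTPD2 (r = 0.922) and BMP1 (r = 0.894), WNT5A to IRX5 (r = 0.874) and HVCN1 (r = 0.854), and WNT5B to NDUFA10 (r = 0.792) and ELF2 (r = 0.788).

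Ranked by FPKM over the 15 libraries, neighbours in the order of a ligand were often within counting error of each other. Of 14 neighbouring pairs, 11 were apart in WNT5A, 8 in WNT11, 6 in WNT3, 5 each in WNT8A, WNT5B and WNT2, 3 in WNT6 and 2 each in WNT3A, WNT2B and WNT4. For WNT8A the 5 highest levels, on day 2, in the day 3 libraries of NP-ctrl, NP-IWP2 and passaged cells and on day 1, were all apart, and the other 10 libraries were at 2 counts or fewer. For WNT5A the highest was day 2 at 103, followed by passaged cells on day 5 at 38.8 and the day 3 libraries of NP-IWP2 at 34.6 and NP-ctrl at 31.6. For WNT11 passaged cells held the first 2 places, on day 7 at 85.2 and on day 10 at 80.3, which were apart. WNT5B was highest in passaged cells on day 10 at 20.6, ahead of day 1 at 16.65, and these too were apart. For WNT6 the 3 day 5 libraries and that of passaged cells on day 7 filled the first 4 places. WNT3A did not exceed an FPKM of 1.22 or 74 counts, and its levels on days 1 and 2 and in passaged cells on day 3 were not apart.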

How the data were processed

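Bulk RNA-seq of 15 H1 libraries was analysed, with groups and days from the labels and 1 library each. Per the study's methods, the authors trimmed reads with Cutadapt (1.9.1), aligned them to hg38 with Hisat2 (2.0.1) and counted them with HTSeq (0.6.1). A long-read library kit is also named, so that length-scaled values carry a doubt. Strandedness of counting is not given in the sources used here. The authors deposited whole-number counts per gene and FPKM, which recomputation from counts and exonic lengths matched within 0.005. Coordinates of the ligands are identical to GENCODE 44.

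Single libraries were compared by FPKM ratio with exact 95% Clopper-Pearson intervals, with counts of 3 or fewer raised to 3. Arms and days were tested with edgeR 4.0.16 (R 4.3.3, TMM, quasi-likelihood) on the deposited counts of 21206 genes, Benjamini-Hochberg adjusted, threshold 0.05. The alternatives were DESeq2 1.42.0 and limma 3.58.1 on log2(FPKM + 1) and log2(FPKM + 0.1), other filters and scalings, and leaving out each day or arm. On data simulated for passaged cells against NP-ctrl over 21206 genes, edgeR recovered 136 of 200 genes changed by 2 on the log2 scale with 12 false calls. It made 0 calls with no change. The simulated means and changes did not vary between days, so these numbers do not measure false calls in the real series. PCR copies are not independent molecules, so intervals and limits cover counting error only. With no second differentiation, p-values measure spread between days or arms of 1 series of cultures.

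All members were reported in every library, with PORCN, WLS and the 2 protein-coding genes most correlated with each ligand. Other pathway genes named were among the 2 most changed called genes of a list in a comparison, or were called by edgeR. These were named for some lists and comparisons only, and the rest of the called list genes are not named. The members, lists and tests were chosen with earlier results of these data known.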

Additional observations from a re-analysis of the deposited data

Results flagged for a closer look

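Between passaged cells and NP-ctrl, 2 ligands were called lower on one day and higher on another. WNT5A, WNT5B, WNT6 and WNT4 also changed direction, but were not called both ways. For WNT4 the higher level was that of day 7, at 12 counts in passaged cells and 5 in NP-ctrl. The FPKM ratio of WNT11 was 0.352 on day 3, with passaged cells lower, and 2.87 on day 7 and 4.83 on day 10, with passaged cells higher. That of WNT2B was 2.06 on day 3 and 0.497, 0.437 and 0.305 on days 5, 7 and 10. The day 3 ratio of WNT2B was under 2 with TMM or median-of-ratios factors. WNT11 also went from 0.338 on day 3 to 2.52 on day 10 between passaged cells and NP-IWP2. Each of these ratios compares 1 library with 1 other library, and the difference between days was not tested.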

How the results depend on the processing

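The numbers of genes that edgeR called between arms depended on the setting. Between passaged cells and NP-ctrl the count of 933 became 2150 with DESeq2, 163 and 222 with limma at pseudocounts of 1 and 0.1, 2571 with no filter, 109 with only the 2 arms compared, and 2373, 283, 133 and 323 without day 3, 5, 7 or 10. The 2 ligands called became 1 with limma at either pseudocount 0 with only the 2 arms or without day 5, 7 or 10, and 3 with no filter or without day 3. Between NP-IWP2 and NP-ctrl the 4 genes became 59 with DESeq2, 0 with limma at either pseudocount (996 genes at an unadjusted p under 0.05), 372 with no filter, 277 with only the 2 arms, 35 without day 3 and 0 without day 5, 7 or 10 (1030, 297 and 497 genes at an unadjusted p under 0.05 in edgeR). With no filter and with only the 2 arms 1 ligand was called in place of 0. For passaged cells against NP-IWP2 the 282 genes became 892 with DESeq2, 6 and 21 with limma, 1368 with no filter, 163 with only the 2 arms, and 675, 51, 13 and 156 without day 3, 5, 7 or 10, with 2 ligands called by DESeq2 and 1 each with no filter and without day 3, in place of 0. Between days 10 and 3 the 7423 genes and 8 ligands became 2235 and 4 without NP-IWP2. Between days 5 and 3 the 2049 genes became 3192 with DESeq2 and 3318 with no filter, and without NP-ctrl 685 genes and 2 ligands were called, without NP-IWP2 94 and 1. The cause of these shifts was not tested, other than that leaving out a day or an arm leaves fewer samples.

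Counting a ligand as changed at a difference of 1 in log2(FPKM + 1), which understates low genes, gave 3 in place of 5 between days 1 and 0 and 4 in place of 7 for NP-IWP2 between days 3 and 2. It gave 1, 1 and 2 in place of 3, 3 and 5 for passaged cells against NP-ctrl on days 5, 7 and 10, 1 and 1 in place of 2 and 3 for NP-IWP2 against NP-ctrl on days 5 and 10, and 1 in place of 3 for passaged cells against NP-IWP2 on day 7. A pseudocount of 0.1 moved 1 of these counts, to 1 for NP-IWP2 against NP-ctrl on day 5. The summed ligand FPKM of day 2, 225, was 231 with TMM factors, 229 with median-of-ratios factors and 851 as TPM. On day 3 it was 355 as TPM in NP-ctrl, 77.5, 77.7 and 327 by the same 3 scalings in NP-IWP2, and 47.8, 46.7 and 219 in passaged cells, or 53.3 there over all 19 WNT genes. Reversal of a log2 change was checked only for ligands with an unadjusted p under 0.05 in the main edgeR fit. None of these was reversed by any setting, and the other ligands were not checked. The day term of the edgeR model compares the arms within days. No paired analysis by replicate number was possible because the labels carry none. At the depth of these libraries, 3 counts of WNT8A, the floor used for ratios, correspond to an FPKM of about 0.07 to 0.11. Levels below this floor entered the ratios only as bounds.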
